A study of Homo sapiens with 5 samples.

Results

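Solute carriers are membrane proteins that move small molecules and ions into, out of and within cells, and their gene symbols begin with SLC and a family number. The genes described here are those whose symbol has that form and whose probe set is annotated to that gene alone, without SLC12A2, SLC26A2, SLC26A3 and SLC2A1. A gene was kept if a probe set read above an intensity of 20 on at least 1 array, and the probe set with the highest mean was used for it. That gave 65 genes of the 3784 genes above this floor. The array carried 92 SLC genes, 88 after the 4 were left out, and 23 of those never read above 20. The members just inside the floor were SLC14A1, SLC12A5, SLC17A4 and SLC67A2, with highest readings of 22, 24, 25 and 29, and the genes just outside were SLC6A4, SLC1A1, SLC8A1 and SLC25A16, with 20, 19, 16 and 13.

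The cells were T84, a human colon carcinoma line grown as a model of intestinal epithelium, and the agent was interferon-gamma (IFN-gamma), a cytokine of T cells and natural killer cells, at 1000 U/ml. One Affymetrix array held untreated cells, which its label calls a pooled control, 2 held cells after 6 h of IFN-gamma and 2 held cells after 18 h. All 5 came from this 1 line, so no donor or other line is represented. The treated arrays are called biological replicates, but nothing says that they came from separate cultures, so the spread behind each p-value may be technical. With 1 untreated array, comparisons with it take their error from the treated arrays.

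Solute carriers work by facilitated diffusion, by exchange, or by coupling to the gradient of sodium, protons or chloride. In intestinal epithelium they absorb sugars, amino acids, peptides, metals and bile acids on the luminal side and pass them on at the basolateral side, while the SLC25 family works in the inner membrane of mitochondria and the SLC35 family brings nucleotide sugars into the Golgi and endoplasmic reticulum. The gamma-activated site and the interferon-stimulated response element are short DNA patterns known from promoters of interferon-induced genes.

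On 2 of the arrays the classic IFN-gamma targets went against the labels. CXCL10, a chemokine, read 1317 on the array labelled untreated, 41 and 1149 on those labelled 6 h (replicate 1, then 2, here and throughout) and 1260 and 1399 on those labelled 18 h. IRF1, a transcription factor, read 1086, then 14 and 907, then 933 and 921 on the same arrays, and TAP1 and GBP1 were likewise low on the array labelled 6 h replicate 1 alone. For all 4 genes the array labelled untreated read near the other 3 treated arrays. Both are called by their labels here, every comparison with untreated rests on the first, every 6 h value rests in part on the second, and values without that 6 h array are given where they bear on a result. All 15 epithelial markers on the array read above the floor on all 5 arrays, with summed intensities between 10960 and 19951, whereas 2 of the 9 fibroblast and endothelial markers on it (summed 278 to 468) and 2 of the 8 leukocyte markers (summed 395 to 618) did. The markers COL1A2, VWF, LUM, CD14 and ITGAM never read above the floor, vimentin read 27 at most and PTPRC (CD45) 38 at most, whereas CD3E read 168 to 345, LYZ 54 to 135, COL1A1 43 to 158 and PDGFRB 29 to 94. THY1 was at -17 on the array labelled untreated and between 62 and 83 on all 4 treated arrays, and what these markers have to do with the results was not tested.

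The promoter windows of 5 members are printed because the results turn on them: SLC35A2, SLC7A5 and SLC2A5 stood apart on the array labelled 6 h replicate 1, SLC10A3 and SLC7A5 on 6 h replicate 2, and SLC3A2 encodes the partner chain of SLC7A5. Each window, from RefSeq on GRCh38.p14, runs from 250 bases before the gene's start to 50 after it, 5′ to 3′ on the gene's own strand. SLC10A3 lies at chrX:154490580-154490879, SLC35A2 at chrX:48911597-48911896, SLC7A5 at chr16:87869458-87869757 and SLC2A5 at chr1:9069586-9069885, all on the minus strand. SLC3A2 has 3 windows, and the 1 with the most matches to the patterns named next is shown, at chr11:62881449-62881748 on the plus strand. SLC35A2 has 2 windows, and the same rule was used. Capitals mark matches on either strand to the gamma-activated site (TTCNNNGAA), the interferon-stimulated response element, searched by its consensus, the E-box (CACGTG, bound by MYC and related factors) or the amino acid response element (TGATGNAA, bound by ATF4 with C/EBP factors).
SLC10A3: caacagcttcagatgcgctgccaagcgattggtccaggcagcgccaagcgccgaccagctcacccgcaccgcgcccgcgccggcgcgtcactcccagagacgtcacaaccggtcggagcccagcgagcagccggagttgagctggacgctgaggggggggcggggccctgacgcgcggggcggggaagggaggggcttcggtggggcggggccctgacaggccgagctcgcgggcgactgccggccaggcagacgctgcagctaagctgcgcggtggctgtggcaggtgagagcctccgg
SLC35A2: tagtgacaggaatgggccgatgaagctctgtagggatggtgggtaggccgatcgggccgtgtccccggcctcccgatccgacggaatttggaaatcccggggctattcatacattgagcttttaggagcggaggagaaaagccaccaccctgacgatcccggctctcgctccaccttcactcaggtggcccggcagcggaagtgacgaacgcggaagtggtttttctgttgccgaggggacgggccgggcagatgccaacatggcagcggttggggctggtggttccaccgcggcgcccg
SLC7A5: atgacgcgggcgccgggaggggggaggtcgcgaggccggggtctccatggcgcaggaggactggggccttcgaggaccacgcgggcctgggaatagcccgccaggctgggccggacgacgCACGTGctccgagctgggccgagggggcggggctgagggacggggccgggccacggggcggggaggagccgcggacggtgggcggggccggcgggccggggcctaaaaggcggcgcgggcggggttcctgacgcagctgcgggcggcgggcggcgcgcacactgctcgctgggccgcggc
SLC2A5: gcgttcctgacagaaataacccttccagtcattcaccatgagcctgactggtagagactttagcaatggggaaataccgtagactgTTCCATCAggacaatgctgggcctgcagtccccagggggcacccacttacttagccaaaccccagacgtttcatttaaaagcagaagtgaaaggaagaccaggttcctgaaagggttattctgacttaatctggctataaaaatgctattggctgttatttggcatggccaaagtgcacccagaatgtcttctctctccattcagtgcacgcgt
SLC3A2: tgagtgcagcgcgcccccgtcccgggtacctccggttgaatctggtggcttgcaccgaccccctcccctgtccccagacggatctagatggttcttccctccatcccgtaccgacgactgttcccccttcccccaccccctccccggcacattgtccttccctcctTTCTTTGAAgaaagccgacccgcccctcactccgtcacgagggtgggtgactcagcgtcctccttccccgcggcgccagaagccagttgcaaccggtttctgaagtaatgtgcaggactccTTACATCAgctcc
SLC10A3 and SLC35A2 hold none of the 4 patterns in these windows. SLC7A5 holds an E-box 130 bases before its start and SLC2A5 an amino acid response element 164 bases before its own. In the window picked for its matches, SLC3A2 holds a gamma-activated site 84 bases before the start. That window also holds an amino acid response element 37 bases after the start. RefSeq gave windows for 51 of the 65 members, 76 windows in all. The gamma-activated site was in 7.89% of them, against 7.66% of all 35116 windows, and the interferon element was in 1.32%, against 3.57%. The E-box was in 13.2% of member windows, against 7.26%, and the amino acid response element in 9.21%, against 3.62%. A match is a description of these letters and not a bound site.

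Of the 65 members, 30 (46.2%) read above 20 on all 5 arrays, against 64.8% of all genes tested, and 35 did so on 1 to 4 arrays. The median member averaged 45 over the arrays and the median gene 76.9, and 34 members averaged under 50. Probe sets differ in how strongly they bind, so a higher intensity of 1 gene than of another is not a higher amount of RNA, and comparisons below are between arrays within a probe set. Where groups of arrays are said below not to overlap, or all treated arrays to lie on one side of the array labelled untreated, only the order is described. The share of all genes with such an order was not counted. The array medians of the members were alike, at 49 on the array labelled untreated, 48 and 56 on the 6 h arrays and 50 and 45 on the 18 h arrays. Of the 17 members that averaged over 100, 8 stayed within 2-fold over the 5 arrays and 9 did not, and 8 of the 17 were lowest on the array labelled 6 h replicate 1. Counts of this kind were not made over all genes, so they are not read as a trait of the members.

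**Figure D1:**
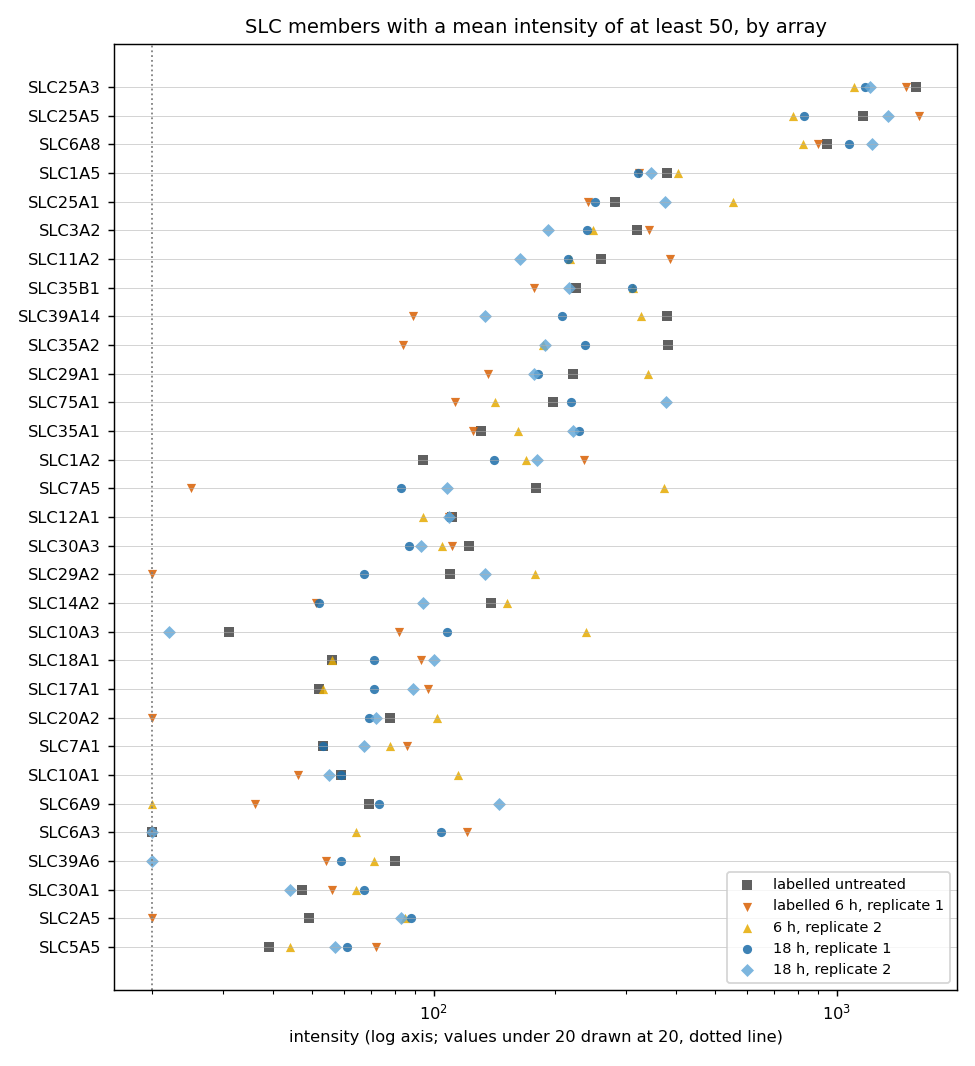
Intensity (log axis, values under 20 drawn at 20) of the 31 members that averaged at least 50, with 1 mark for each of the 5 arrays and no error bar, since each mark is 1 array. The 5 marks lie within 2-fold for 13 of the 31 members and further apart for 18, and SLC7A5 runs between 25 and 372 and SLC10A3 between 22 and 239.

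The comparisons with untreated follow the labels, although IFN-gamma targets read high on the array labelled untreated. They therefore cannot show what IFN-gamma does to these transporters. In the first, 6 h against untreated, those targets were also low on the array labelled 6 h replicate 1. No member passed limma's test at a Benjamini-Hochberg adjusted p of 0.05 (each adjusted p was 1), and of all 3784 genes 0% did. At an unadjusted p under 0.05 limma gave 183 of 5029 probe sets, among them SLC2A3 and SLC1A2 on the higher side (2 members, where 1.72% of all genes were higher by that rule) and no member on the lower side (1.93% of all genes). By measured direction 33 members were higher at 6 h, 29 lower and 3 equal, with a median log2 change of 0.03, and for all genes the median was 0. Without the array labelled 6 h replicate 1 the counts were 33 higher, 24 lower and 8 equal, with a median of 0.03.

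The comparison of 18 h with untreated gave no member past the adjusted threshold either (smallest limma adjusted p 0.985), where 0% of all genes passed. At an unadjusted p under 0.05 limma gave 223 probe sets. SLC5A1 was the 1 member on the higher side (2.14% of all genes) and SLC38A3 the 1 on the lower side (2.48% of all genes). SLC5A1 passed the floor on the 18 h arrays alone, so its p-value is no support for a change. In direction 28 members were higher at 18 h, 32 lower and 5 equal, with a median log2 change of 0, and the median of all genes was -0.02.

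Between 18 h and 6 h, the comparison that leaves out the array labelled untreated from both means, no member passed (smallest limma adjusted p 0.94), where 0% of all genes passed. At an unadjusted p under 0.05 limma gave 217 probe sets. SLC75A1, SLC6A9 and SLC5A1 were higher at 18 h (3 members, where 2.33% of all genes were higher by that rule). SLC38A3 and SLC2A3 were lower (2 members, where 2.11% were lower). The p-value of SLC5A1 is no support here either, since it passed the floor on the 18 h arrays alone. Here 40 members (61.5%) were lower at 18 h and 25 higher, with a median log2 change of -0.14, whereas 1966 of the 3784 genes were lower, with a median of -0.02. Among the 31 members that averaged at least 50, 18 were lower and 13 higher. Without 6 h replicate 2, 31 of the 65 were lower, 29 higher and 5 equal, and without the array labelled 6 h replicate 1, 40 were lower and 24 higher. The 3 comparisons share arrays in pairs, so they are not independent of each other.

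**Figure D2:**
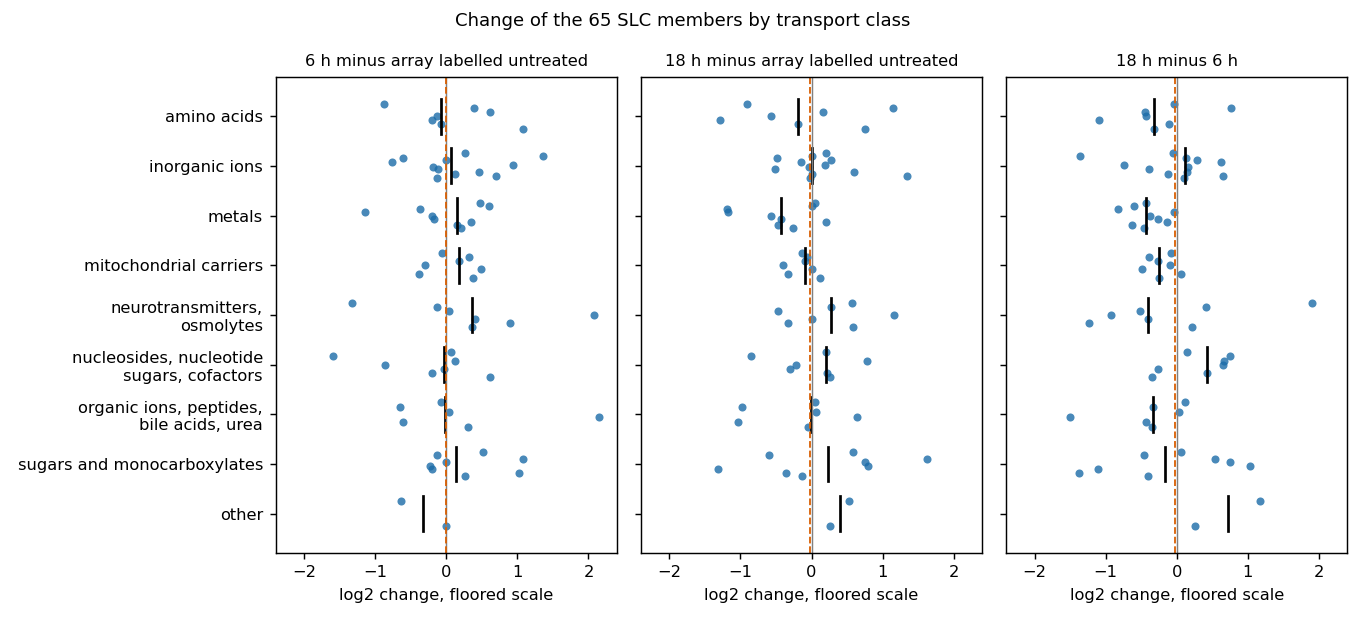
Log2 change of each of the 65 members by transport class, as 1 point per gene, in the 3 comparisons, with a black bar at the class median, a solid line at 0 and a dashed line at the median of all genes tested. In the 18 h minus 6 h panel all 9 metal transporters lie left of 0, and the points of most other classes lie on both sides.

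The amino acid transporters had 7 members, of which 3 were higher and 4 lower at 6 h than untreated, 3 higher and 4 lower at 18 h than untreated, and 1 higher and 6 lower at 18 h than at 6 h. The median log2 change of the last comparison was -0.32, and -0.27 without the array labelled 6 h replicate 1. Without 6 h replicate 2, 3 were higher and 4 lower (median -0.52), and without 18 h replicate 1, 2 were higher and 5 lower (median -0.15). SLC1A5, the sodium-coupled transporter of glutamine and other neutral amino acids, read 379 on the array labelled untreated, 323 and 403 after 6 h and 321 and 346 after 18 h. The 5 values spanned 1.25-fold on the floored scale, the 6 h arrays lay on either side of the array labelled untreated and both 18 h arrays below it, with a log2 change of -0.19 ± 0.26 (SE) at 18 h against untreated.

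SLC3A2 is the heavy chain that carries SLC7A5 and other light chains to the cell surface. It read 320 on the array labelled untreated, then 342 and 248 at 6 h and then 240 and 192 at 18 h. Both 18 h arrays lay below all the others, with a log2 change of -0.44 ± 0.28 (SE) against 6 h and -0.57 ± 0.34 against untreated (limma adjusted p 0.94 and 1). Against 6 h it was -0.21 without the array labelled 6 h replicate 1, -0.67 without 6 h replicate 2 and -0.28 without 18 h replicate 2. SLC7A5, the light chain LAT1 that exchanges large neutral amino acids, read 179 on the array labelled untreated, 25 and 372 on the 6 h arrays and 83 and 108 on the 18 h arrays. The 6 h arrays thus held both its lowest and its highest value, and the 2 chains of the heterodimer did not share an order over the arrays. The log2 change of SLC7A5 at 18 h against 6 h was -0.04 ± 1.53 (SE), -1.96 without the array labelled 6 h replicate 1 and 1.88 without 6 h replicate 2.

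SLC1A2, a sodium-coupled glutamate transporter best known from glia, read 94 on the array labelled untreated, 236 and 169 after 6 h and 141 and 180 after 18 h. All 4 treated arrays lay above the array labelled untreated. Its log2 change was 1.08 ± 0.35 (SE) at 6 h (limma p 0.0497, adjusted p 1) and 0.75 ± 0.35 at 18 h. SLC38A3, the glutamine transporter SNAT3, read 55 on the array labelled untreated, then 44 and 52 at 6 h and then 24 and 15 at 18 h. Both 18 h arrays lay below the other 3, at log2 changes of -1.29 ± 0.27 (SE) against untreated (limma p 0.0139, adjusted p 0.985) and -1.09 ± 0.22 against 6 h (limma p 0.0125, adjusted p 0.94), and -1.21 against 6 h without the array labelled 6 h replicate 1. Its 18 h values lie near or under the floor, so the intensities say more than the fold. SLC7A2, a carrier of cationic amino acids, read 18 on the array labelled untreated, 35 and -1 on the 6 h arrays and 31 and 67 on the 18 h arrays, and SLC7A1, of the same family, stayed between 53 and 86.

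As the other genes of amino acid supply, 8 genes of the amino acid response listed for this purpose were measured. Of these 0 passed the test, where 0% of all genes passed. At 18 h 4 were higher than untreated and 4 lower, with a median log2 change of 0.01. Against 6 h, 4 were higher and 4 lower at 18 h, with a median of -0.15. ASNS, asparagine synthetase, read 165 on the array labelled untreated, 101 and 161 after 6 h and 77 and 54 after 18 h. It was lowest on both 18 h arrays (log2 change -0.97 against 6 h, limma adjusted p 0.94). WARS1 went the other way, at 1.40 against 6 h (limma adjusted p 0.94). Its lowest value was on the array labelled 6 h replicate 1, where the IFN-gamma targets were also low, so this change rests in part on that array. It read 1847 on the array labelled untreated, 405 and 1335 after 6 h and 1447 and 2621 after 18 h. ATF4, the transcription factor of this response, read 364 on the array labelled untreated, then 865 and 373 at 6 h and then 396 and 327 at 18 h, and so stood apart on the array labelled 6 h replicate 1.

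All 9 metal transporters were lower at 18 h than at 6 h, with log2 changes from -0.83 to -0.03 and a median of -0.43. None had an unadjusted limma p under 0.05. Without the array labelled 6 h replicate 1, 8 were lower and 1 higher (median -0.23), without 6 h replicate 2, 8 lower and 1 higher (median -0.30), and without 18 h replicate 2, 7 lower and 2 higher (median -0.31). With a floor of 50, 6 were lower and 3 equal (median -0.05), with a floor of 100, 3 lower and 6 equal (median 0), and the 5 that averaged at least 50 were all lower (median -0.26). Against untreated the class was less uniform, with 5 higher and 4 lower at 6 h and 2 higher, 6 lower and 1 equal at 18 h.

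SLC11A2, the proton-coupled importer of ferrous iron (DMT1), read 260 on the array labelled untreated, 386 and 218 on the 6 h arrays and 215 and 164 on the 18 h arrays. Its lowest array was 18 h replicate 2, and 18 h replicate 1 and 6 h replicate 2 differed by only a few units. The log2 change at 18 h against 6 h was -0.62 ± 0.39 (SE, limma adjusted p 0.94), -0.21 without the array labelled 6 h replicate 1 and -1.04 without 6 h replicate 2. SLC39A14, an importer of zinc and iron (ZIP14), read 379 on the array labelled untreated, 89 and 327 after 6 h and 208 and 134 after 18 h. All 4 treated arrays lay below the array labelled untreated, at log2 changes of -1.15 ± 0.97 (SE) at 6 h and -1.18 ± 0.97 at 18 h (limma adjusted p 1 for both), and the 6 h value was -0.21 without the array labelled 6 h replicate 1 and -2.08 without 6 h replicate 2.

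SLC39A6, a zinc importer, read 80 on the array labelled untreated, then 54 and 71 at 6 h and then 59 and 20 at 18 h, and was at least 2-fold below the 4 other arrays on 18 h replicate 2. SLC30A3, a zinc carrier of synaptic vesicles, read 122 on the array labelled untreated, 111 and 105 on the 6 h arrays and 87 and 93 on the 18 h arrays. Its values did not overlap between the 3 groups (the share of all genes was not counted), yet the log2 change at 18 h against 6 h was only -0.26 ± 0.18 (SE). SLC30A1, the zinc exporter of the plasma membrane, stayed between 44 and 67. The other 4 members of the class, SLC39A9, SLC31A2, SLC39A7 and SLC11A1, never read above 56 and each read below 20 on 1 or more arrays.

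The mitochondrial carriers, also 7 members, included several that read far above the floor on every array. SLC25A3, which brings phosphate into the matrix for ATP synthesis, read 1572 on the array labelled untreated, 1483 and 1101 after 6 h and 1174 and 1212 after 18 h. SLC25A5, which exchanges ADP for ATP, read 1160 on the array labelled untreated, then 1601 and 778 at 6 h and then 831 and 1341 at 18 h. In neither gene did the 18 h arrays separate from the 6 h arrays, and the log2 changes of that comparison were -0.10 ± 0.24 and -0.08 ± 0.52 (SE), turning to 0.12 and 0.44 without the array labelled 6 h replicate 1. The SLC25A5 probe set is of a type that can bind several related transcripts, and SLC25A4, the isoform of muscle and heart, read between 15 and 47.

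SLC25A1, which exports citrate from mitochondria for lipid synthesis, read 282 on the array labelled untreated, 242 and 554 on the 6 h arrays and 251 and 374 on the 18 h arrays. Its highest array was 6 h replicate 2, and a second probe set of the gene, at 53, 57, 146, 80 and 19 on the same arrays, was highest there too. The log2 change at 6 h against untreated was 0.38 ± 0.67 (SE, limma adjusted p 1), 0.97 without the array labelled 6 h replicate 1 and -0.22 without 6 h replicate 2. As a class, 1 carrier was higher and 6 lower at 18 h than at 6 h, with a median of -0.26. Without the array labelled 6 h replicate 1, 2 were higher and 5 lower (median -0.78), without 6 h replicate 2, 3 higher, 2 lower and 2 equal (median 0), and without 18 h replicate 1, 3 higher and 4 lower (median -0.08). SLC25A11, SLC25A13 and SLC25A46 stayed at 83 or below.

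Nucleoside, nucleotide sugar and cofactor transporters leaned the other way. At 18 h 5 of 7 were higher than at 6 h (46.2% of all genes were), with a median log2 change of 0.42. Without the array labelled 6 h replicate 1 that became 3 higher and 4 lower, with a median of -0.26, and without 18 h replicate 2, 4 higher and 3 lower, with a median of 0.15. SLC35A2, the Golgi transporter of UDP-galactose, read 382 on the array labelled untreated, 84 and 187 after 6 h and 237 and 189 after 18 h. It was the 1 member at least 2-fold lower on both 6 h arrays than untreated (1.61% of all genes were), at -1.60 ± 0.61 on the log2 scale (SE, limma adjusted p 1), and -1.03 without the array labelled 6 h replicate 1 (-2.17 without 6 h replicate 2). The 18 h arrays also lay below the array labelled untreated (-0.85 ± 0.61), and the gene's other probe set was negative on all arrays.

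SLC35B1, a nucleotide carrier of the endoplasmic reticulum, read 225 on the array labelled untreated, then 177 and 312 at 6 h and then 311 and 217 at 18 h. Its groups overlapped in all 3 comparisons. SLC29A2, an equilibrative nucleoside transporter, read 110 on the array labelled untreated, 4 and 178 on the 6 h arrays and 67 and 134 on the 18 h arrays. The array labelled 6 h replicate 1 alone was at the floor, and the other 4 spread over a range that covered both times. The remaining members were SLC35A1, which carries CMP-sialic acid, SLC29A1, SLC28A1 and the folate carrier SLC19A1, with readings from -84 to 341.

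Of the bile acid, peptide and urea transporters, 6 in all, SLC10A3 spanned 10.4-fold over the arrays on the floored scale. It belongs to the bile acid transporter family by sequence, and its substrate is not established. It read 31 on the array labelled untreated, 82 and 239 after 6 h and 108 and 22 after 18 h. Both 6 h arrays were at least 2-fold above the array labelled untreated, as were those of SLC6A3 (2 members, where 1.93% of all genes were), and the 18 h arrays lay on either side of it. The log2 change of SLC10A3 was 2.14 ± 1.32 (SE) at 6 h against untreated and -1.50 ± 1.08 at 18 h against 6 h (limma adjusted p 1 and 0.94). Without the array labelled 6 h replicate 1 these were 2.91 and -2.26, without 6 h replicate 2 they were 1.38 and -0.73, and without 18 h replicate 1 the 18 h change against untreated was -0.48, where all 5 arrays gave 0.65.

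SLC10A2, the ileal importer of bile acids, read 66 on the array labelled untreated, then 33 and 56 at 6 h and then 50 and 20 at 18 h. All treated arrays lay below the array labelled untreated, at -1.03 ± 0.74 (SE) on the log2 scale at 18 h (limma adjusted p 1), -1.67 without 18 h replicate 1 and -0.39 without 18 h replicate 2. SLC14A2, a urea transporter of the kidney, read 139 on the array labelled untreated, 51 and 152 on the 6 h arrays and 52 and 94 on the 18 h arrays, with overlap between the times. SLC10A1, the bile acid importer of hepatocytes, stayed between 46 and 115, SLC15A2, a peptide transporter, between 37 and 46, and SLC14A1 at 22 or below. SLC15A1, the peptide transporter of the small intestine, was among the genes never above the floor, at 5 or below.

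The 8 members of the sugar transporter families split evenly at 18 h against 6 h, with 4 higher and 4 lower. SLC2A3, a glucose transporter of high affinity, read 26 on the array labelled untreated, 60 and 48 after 6 h and 8 and -8 after 18 h. The 6 h arrays lay above and the 18 h arrays below the array labelled untreated. Its log2 change was 1.02 ± 0.26 (SE) at 6 h against untreated (limma p 0.0249, adjusted p 1) and -1.38 ± 0.21 at 18 h against 6 h (limma p 0.0056, adjusted p 0.94), and -1.22 in the second comparison without the array labelled 6 h replicate 1. It was the 1 member at least 2-fold lower on both 18 h arrays than on both 6 h arrays (0.37% of all genes were). All its values were dim, and both 18 h values were under the floor.

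SLC2A4, the insulin-responsive glucose transporter, read 51 on the array labelled untreated, then 67 and 29 at 6 h and then 16 and 17 at 18 h. It and SLC38A3 were the 2 members at least 2-fold lower on both 18 h arrays than untreated (2.54% of all genes were), and no member was 2-fold higher (2.88%). A second probe set of SLC2A4 read 39, 11, 32, 28 and 39 on the same arrays and did not separate them. SLC2A5, the fructose transporter, read 49 on the array labelled untreated, -29 and 85 on the 6 h arrays and 88 and 83 on the 18 h arrays, low only on the array labelled 6 h replicate 1 and on the array labelled untreated.

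SLC5A1, the sodium-glucose cotransporter of the gut, was at -2 on the array labelled untreated, -41 and 14 after 6 h and 37 and 32 after 18 h. It passed the floor on both 18 h arrays and on no other, at 0.75 ± 0.19 (SE) on the floored log2 scale against 6 h (limma p 0.0237, adjusted p 0.94). SLC5A2, its relative of the kidney, was at -33 on the array labelled untreated, then -76 and 93 at 6 h and then 199 and -8 at 18 h. Each time thus had 1 array above the floor and 1 below 0, and 18 h replicate 1 was at least 2-fold above the 4 others (0.581% of all genes were). SLC5A5, the iodide transporter, stayed between 39 and 72, SLC5A3, which carries myo-inositol, between 31 and 52, and SLC2A2, the glucose transporter of liver and islets, between 18 and 31.

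Among the transporters of neurotransmitters and osmolytes, 7 members, SLC6A8 read far above the floor. It imports creatine with sodium and chloride, and read 944 on the array labelled untreated, 897 and 827 on the 6 h arrays and 1073 and 1221 on the 18 h arrays. Both 18 h arrays lay above the array labelled untreated and both 6 h arrays below it, at a log2 change of 0.41 ± 0.19 (SE) for 18 h against 6 h (limma adjusted p 0.94). A second probe set of the gene read 354 on the array labelled untreated, 397 and 573 after 6 h and 632 and 655 after 18 h. It too was highest on the 18 h arrays, but its 6 h arrays lay above the array labelled untreated.

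SLC6A9, a glycine transporter, read 69 on the array labelled untreated, then 36 and 3 at 6 h and then 73 and 145 at 18 h. It was the 1 member at least 2-fold higher on both 18 h arrays than on both 6 h arrays (0.661% of all genes were), at a log2 change of 1.90 ± 0.53 (SE, limma p 0.0327, adjusted p 0.94), and at 2.31 without the array labelled 6 h replicate 1. SLC6A3, the dopamine transporter, was at -3 on the array labelled untreated, 121 and 64 on the 6 h arrays and 104 and 7 on the 18 h arrays. Its 6 h arrays lay above the array labelled untreated and its 18 h arrays covered nearly the whole range.

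A second probe set of SLC6A3 is the 1 SLC entry among 97 in the authors' deposited table of induced genes, which gives it 6 for the control, 6 and 32 at 6 h and 29 and 68 at 18 h. In the table of all probe sets it had 7 on the array labelled untreated and the same 4 treated values. Over the 97 entries the authors' deposited table equals the table of all probe sets in 97 for each treated array and in 3 for the array labelled untreated. The 2 probe sets of SLC6A3 differed in which arrays were high: 18 h replicate 2 was the highest of the second and near the floor in the first. SLC6A11, a transporter of GABA, read 35 on the array labelled untreated, 39 and 112 after 6 h and -5 and 38 after 18 h. SLC18A1, a vesicular amine transporter, stayed between 56 and 100, SLC6A6, which carries taurine, between 33 and 68, and the noradrenaline transporter SLC6A2 passed the floor on 1 array at 36.

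The inorganic ion transporters were the largest class, with 12 members. At 18 h 7 were higher and 5 lower than at 6 h (46.2% of all genes were higher), with a median log2 change of 0.12. Without 18 h replicate 2, 4 were higher, 6 lower and 2 equal (median -0.01), and without 6 h replicate 2, 5 higher, 4 lower and 3 equal (median 0). SLC12A1, the sodium-potassium-chloride cotransporter of the kidney, read 111 on the array labelled untreated, then 109 and 94 at 6 h and then 109 and 109 at 18 h. The 5 values spanned 1.18-fold. SLC17A1, a sodium-phosphate and urate carrier, read 52 on the array labelled untreated, 97 and 53 on the 6 h arrays and 71 and 89 on the 18 h arrays, with all treated arrays above the array labelled untreated, though 1 of them by a single unit. SLC12A4, a potassium-chloride cotransporter of many cells, was at 13 on the array labelled untreated, 32 and 34 after 6 h and 36 and 76 after 18 h. Its 3 groups did not overlap, though 34 at 6 h and 36 at 18 h nearly met and the array labelled untreated was under the floor. The share of all genes was not counted. Its log2 change was 1.35 ± 0.55 (SE) at 18 h against untreated (limma adjusted p 1), and 0.82 without 18 h replicate 2.

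SLC20A1 and SLC20A2 are the widely expressed sodium-phosphate importers PiT-1 and PiT-2. SLC20A1 read 25 on the array labelled untreated, then 102 and 23 at 6 h and then 33 and 25 at 18 h. SLC20A2 read 78 on the array labelled untreated, 20 and 102 on the 6 h arrays and 69 and 72 on the 18 h arrays. The array labelled 6 h replicate 1 was thus the highest for SLC20A1 and the lowest for SLC20A2, and the other 4 arrays of each lay within 1.5-fold. SLC4A2, an exchanger of chloride and bicarbonate, was at -219 on the array labelled untreated, -219 and 138 after 6 h and 19 and -181 after 18 h, so it passed the floor on 6 h replicate 2 alone. The other 6 members, SLC17A2, SLC17A4, SLC34A1, SLC12A5, SLC4A1 and SLC4A3, read 57 or below on every array.

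A pair of members fell in no class. SLC75A1, listed before as MFSD10, read 198 on the array labelled untreated, then 113 and 142 at 6 h and then 219 and 376 at 18 h. Both 18 h arrays lay above the array labelled untreated and both 6 h arrays below it, at a log2 change of 1.17 ± 0.37 (SE) for 18 h against 6 h (limma p 0.0459, adjusted p 0.94), and of 1.01 without the array labelled 6 h replicate 1. SLC67A2, listed before as MFSD9, passed the floor on 18 h replicate 2 alone, at 29.

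**Figure D3:**
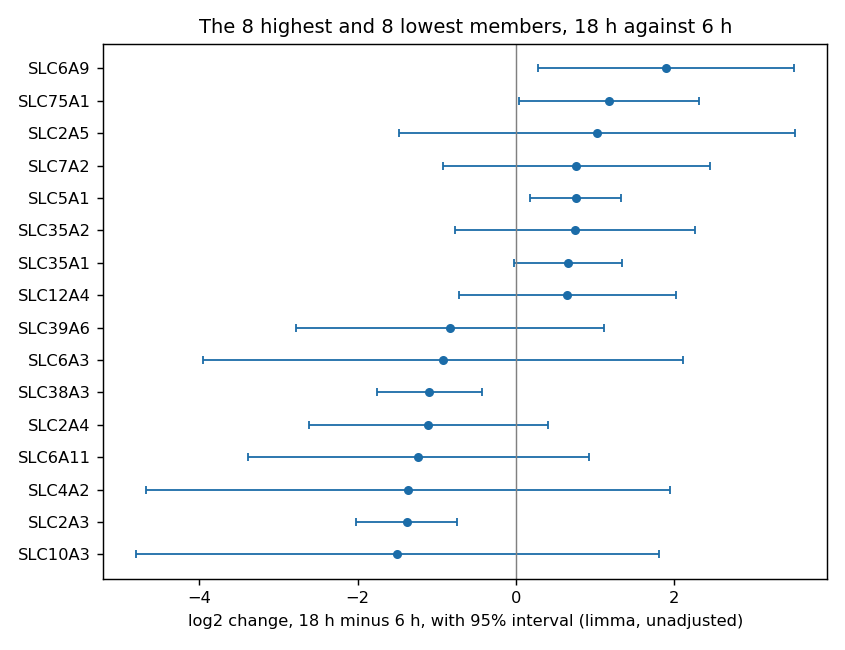
Log2 change at 18 h against 6 h of the 8 highest and the 8 lowest members, as a point with limma's unadjusted 95% interval, 2 arrays per time. The intervals of SLC6A9, SLC75A1, SLC5A1, SLC38A3 and SLC2A3 leave out 0, and those of the other 11 include it. SLC5A1 was raised to the floor on both 6 h arrays and SLC2A3 on both 18 h arrays, so their intervals hold no spread at those times.

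Single arrays carried much of this spread. Between the 6 h arrays, 5 members were at least 2-fold higher on replicate 1 and 16 at least 2-fold higher on replicate 2, where 11.7% and 16.3% of all genes were. Between the 18 h arrays, 6 members were at least 2-fold higher on replicate 1 and 3 on replicate 2, where 5.58% and 6.47% of all genes were. On the array labelled 6 h replicate 1, SLC35A2, SLC7A5, SLC29A2, SLC20A2 and SLC2A5 were at least 2-fold below all 4 other arrays, which is 7.69% of the members, against 5.05% of all genes, and SLC20A1 was at least 2-fold above them (2.62% of all genes were). On 6 h replicate 2, SLC7A5, SLC10A3, SLC6A11 and SLC4A2 were at least 2-fold above the 4 others, 6.15% of the members against 1.74% of all genes, and no member was below (0.766%). SLC4A2 passed the floor on that array alone, so the filter fixed that it was highest there and it is no support for that share. On 18 h replicate 1, SLC5A2 alone was above and no member below (0.396%). On 18 h replicate 2, SLC12A4 was above and SLC39A6 below the 4 others (1.03% of all genes each), and on the array labelled untreated no member stood apart (0.608% above, 0.872% below).

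With the floor at 50, 1 of the 5 low members of the array labelled 6 h replicate 1 kept its place, SLC35A2 (2.88% of all genes), and on 6 h replicate 2 all 4 did (0.529%). Of these 4, SLC4A2 was a member through 6 h replicate 2 alone. SLC20A1 and SLC5A2 also kept theirs, and SLC12A4 and SLC39A6 did not. That floor also ended the 2-fold separation of both arrays of a time for SLC10A3 and SLC6A3 at 6 h, for SLC38A3 and SLC2A4 at 18 h, and for SLC6A9 and SLC2A3 between 18 h and 6 h, and left SLC35A2 at 6 h. The low calls of SLC7A5, SLC29A2, SLC20A2 and SLC2A5 therefore rest on readings between -29 and 25 against readings of 49 and more.

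**Figure D4:**
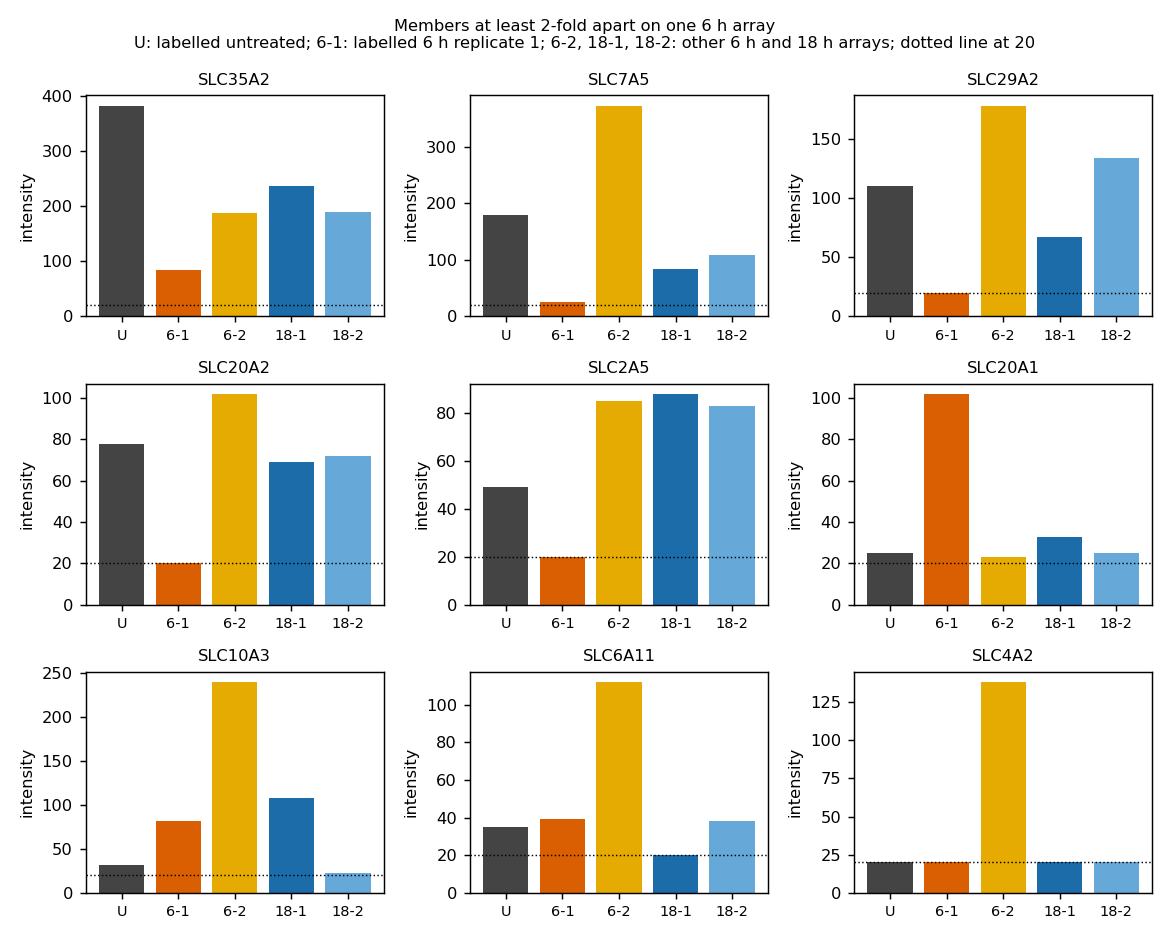
Intensity on each of the 5 arrays (bars from 0, values under 20 drawn at the dotted line) of the 9 members at least 2-fold apart from the 4 other arrays on 1 of the 6 h arrays. The bars of the array labelled 6 h replicate 1 are lowest in SLC35A2, SLC7A5, SLC29A2, SLC20A2 and SLC2A5 and highest in SLC20A1, and those of 6 h replicate 2 are highest in SLC7A5, SLC10A3, SLC6A11 and SLC4A2.

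Since 0 of 5029 probe sets passed the test in any comparison, lists of other membrane transport genes could hold no call either. Of 13 measured partners of solute carriers and ion pumps 0 passed the test, 5 were higher and 8 lower at 18 h than untreated, and the median log2 change was -0.20. BSG (basigin), the chaperone of monocarboxylate transporters, read 1050 on the array labelled untreated, 2413 and 1164 on the 6 h arrays and 1203 and 1753 on the 18 h arrays, and ATP1B1, the beta subunit of the sodium pump, stayed between 859 and 968. Of 9 measured ABC and SLCO transporters 0 passed, 1 was higher and 8 lower at 18 h than untreated, with a median of -0.66. The SLC members had 28 higher and 32 lower, and 51.9% of all genes were lower, with a median of -0.02. All these counts rest on the 1 array labelled untreated, on which IFN-gamma targets read high. ABCC2, an exporter of conjugated compounds, read 81 on the array labelled untreated, 38 and 44 after 6 h and 39 and 49 after 18 h, below the array labelled untreated on all treated arrays (limma adjusted p 1 at both times).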

How the data were processed

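Labelled RNA of 5 T84 samples was measured on Affymetrix arrays. The deposited values are linear intensities in whole numbers, 25.3% to 29.5% of them negative per array. Array means without the extreme 2% at each end lay between 98.3 and 100.3, and the steps by which the authors made the intensities are not given in the sources used here. A second deposited table lists the authors' induced genes. Gene names came from the platform annotation: 5649 of 7018 had 1 gene symbol, 321 several and 1048 none, and no SLC symbol needed updating. Depth has no meaning for arrays, and their number limits the precision.

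Intensities below 20 were raised to 20 and log2 of the value plus 1 was used, which understates the change of dim genes. The 5029 probe sets above 20 on at least 1 array were fitted by lmFit and eBayes of limma 3.58.1 under R 4.3.3 (3 groups, 2 residual degrees of freedom, prior 1.24), and p-values were adjusted over all of them by Benjamini-Hochberg. The fit was also run on simulated data that had the same spread for every probe set and no floor at 20. That run cannot show how the fit does on floored values. Counts over genes used 1 probe set per gene, and transport classes follow SLC family numbers.

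The members, classes, marker lists and the floor were chosen with earlier results of these data known. Genes named with their values are SLC10A3, each comparison's 5 highest and 5 lowest members, the 8 highest means, the 2 highest means per class, members apart on the array labelled 6 h replicate 1, and members in the authors' table. The other members and list genes named were chosen after their values were seen.

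Replicate numbers were not used as pairs in the main fit. Deviations of same-numbered arrays correlated at -0.291 over the 5029 probe sets above the floor. With 2 arrays per time, crossing the numbers only turns the sign of this value, so it cannot decide whether samples were paired. No 2 arrays held copies, with at most 141 equal values of 7018. Alternatives were floors of 0, 50 and 100, no filter, a mean of at least 50, quantile normalization, a replicate block and each array left out.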

Additional observations from a re-analysis of the deposited data

Results flagged for a closer look

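In 5 members both 6 h arrays lay on one side of the array labelled untreated and both 18 h arrays on the other. The share of all genes with this order was not counted, so the 5 are only listed and not read as a trait of the members. In each, the change at 6 h and the change at 18 h had opposite signs on every array. The test of that difference is 18 h minus 6 h, on the log2 scale. No member passed it after Benjamini-Hochberg adjustment (limma adjusted p 0.94 for each). SLC2A3, a glucose transporter, gave -1.38 (lower on 2 of 2 arrays at 18 h), with readings of 8 and -8 at 18 h, under the floor. SLC6A8, the creatine transporter, gave 0.41, SLC6A9, a glycine transporter, gave 1.90, and SLC75A1 gave 1.17, each higher on 2 of 2 arrays at 18 h. The fifth, SLC2A2, is a glucose transporter that gave -0.40 and lay close to the floor of 20, at 31 and 23 on the 6 h arrays, 18 and 18 on the 18 h arrays and 22 on the array labelled untreated. The array labelled untreated, on which IFN-gamma targets read high, sets which side each value is on, and its part in these results was not tested. Groups of 2 arrays or fewer allow no outlier test.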

How the results depend on the processing

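In all settings tried, 0 members passed the adjusted threshold in any comparison, while other probe sets did with a floor of 50 (43, 47 and 0 in the order 6 h against untreated, 18 h against untreated, 18 h against 6 h), a floor of 100 (55, 58 and 6) and no filter (100, 97 and 1). The members' median log2 change at 6 h against untreated was -0.071 with a floor of 0 or a mean of at least 50 and 0 with floors of 50 and 100. At 18 h against untreated it was -0.21 with a floor of 0 and -0.026 with a mean of at least 50. At 18 h against 6 h it was 0 with floors of 50 and 100. The cause was not tested beyond the construction: higher floors set more members equal. Leaving out 1 array at a time gave 0 to 0.034 at 6 h against untreated, 0 throughout at 18 h against untreated and -0.22 to 0 at 18 h against 6 h, the 0 without 6 h replicate 2. With the replicate block the median at 18 h against untreated was -0.026 and 0 members were called, and with crossed numbers (added after seeing the data, median -0.13) 0 members and 0 probe sets were called. Members with an unadjusted p under 0.05, 2, 2 and 5 with all arrays, numbered 9, 9 and 12 without 6 h replicate 1 and 12, 9 and 14 without 6 h replicate 2, while such probe sets, 183, 223 and 217 of 5029 with all arrays, numbered 537, 553 and 591, and 880, 553 and 843. Among the 37 named members the sign turned in at most 8 within any 1 comparison under any 1 setting. Turns to exactly 0 are not counted there, and different members can turn in different comparisons of the same setting. With 1 array left out, the lone array of a time is assumed to vary like the others. On at least 1 array 35 members read 20 or less, so signal over background limits them.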
